A study of Mus musculus with 4 samples.

Results

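The 9 transcription factor genes described here pattern somites, limbs and head muscles, and were followed in satellite cells, which are muscle stem cells. They were taken by symbol from a table of 21264 genes: Pitx1, Pitx3, Tbx1, Tbx4, Tbx5, Lbx1, Dmrt2, Meox1 and Meox2, and all 9 were found. The data are 4 mouse RNA sequencing libraries of 1 group, N3OE, numbered as in the labels. The donor cells were of the iPax3 line (pluripotent stem cells turned into myogenic progenitors by induced Pax3), were given NICD3 overexpression (the intracellular domain of the Notch3 receptor), and were re-isolated from the host after transplantation. All 4 libraries share the line, NICD3 and the passage through a host. Donor cells without NICD3 were not analysed here, so levels could not be compared between groups, and the promoter driving NICD3, the recipient muscle and the age of the animals are not given in the labels used here. The labels do not tie the replicates to separate animals, and the spreads may be technical.

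In the embryo, these genes act as a positional system for muscle. Pitx1 and Tbx4 specify the hindlimb and Tbx5 the forelimb, and within the limb all are expressed mainly in mesenchyme. Tbx1 acts in the pharyngeal mesoderm that forms jaw and throat muscles, and Pitx genes act in eye and head muscle. Dmrt2, Meox1 and Meox2 are genes of the somite and of the dermomyotome, its muscle-forming sheet. Lbx1 marks precursors that leave the somite for the limb. In the mouse embryo Pax3 acts upstream of Dmrt2 and Lbx1, and Dmrt2 of Myf5.

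Levels are in CPM, reads of a gene per 1e+06 counted, and comparisons between genes are in CPM per kb of exon. Depth was 12544138 to 13302916 reads per library, so 1 read was worth 0.0752 to 0.0797 CPM. For a gene without a read, 3 counts set the upper limit, 0.226 to 0.239 CPM. Intervals and this floor cover counting error only, since amplified reads are not independent molecules. The 12 satellite cell markers all averaged at least 1 CPM, as did all 10 endothelial and all 8 myofibre markers and 60.6% of all genes, so this count alone does not single out satellite cells. The satellite cell markers had the highest median of these 3 lists (287 CPM, against 15.1 and 81.9 CPM), with Pax7 at 130 ± 12.4 CPM (SD, n = 4 throughout). Libraries differed in base composition. The Spearman coefficient between transcript GC content and a library's departure from the gene mean, over genes averaging at least 10 CPM, was 0.435, 0.219, 0.0061 and -0.555 in replicates 1 to 4. Values after a correction for GC content are given for the described factors averaging at least 1 CPM. Levels of all other genes are given as deposited.

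Of the 9 genes, 6 averaged at least 1 CPM (Dmrt2, Pitx3, Meox1, Meox2, Lbx1 and Tbx1), beside 60.6% of all genes in the table. Only the first 4 of these reached 1 CPM in every library, beside 53.6% of all genes. A mean of 10 CPM was reached by 3, Dmrt2, Pitx3 and Meox1, beside 43.3% of all genes. Pitx1 and Tbx5 had no read in any library, as did 22.6% of all genes. The median of the 9 means was 1.24 CPM, against 4.83 CPM over all genes.

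**Figure D1:**
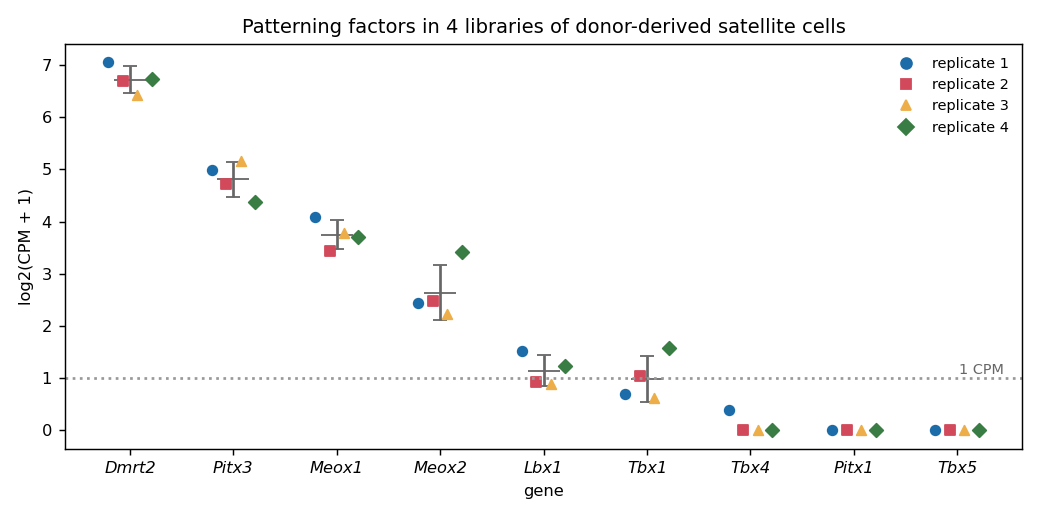
Level of each gene in the 4 libraries, as log2(CPM + 1) on the vertical axis, with genes ordered by mean CPM. Points are replicates, and the bar with whiskers is the mean ± SD for genes with reads in all 4 libraries. Levels descend from Dmrt2 to Tbx1, and Tbx4, Pitx1 and Tbx5 lie at or near 0. CPM is not corrected for length.

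The limb identity genes had no reads or nearly none at this depth. Pitx1 (ENSMUSG00000021506, chromosome 13, 55825051 to 55836192), the homeobox gene of hindlimb identity, had 0 reads in each of the 4 libraries. Tbx5 (ENSMUSG00000018263, chromosome 5, 119832668 to 119885219), the T-box gene that starts forelimb outgrowth, also had 0 reads in each. Such a gene is not shown to be absent, and in folds it is set at the limit of 3 counts per library. Tbx4 (ENSMUSG00000000094, chromosome 11, 85886422 to 85916097), the hindlimb T-box gene, had 4 reads in replicate 1 and none in the other libraries. That is 0.313 CPM in replicate 1, with an exact 95% Poisson interval of 0.0852 to 0.801 CPM, a range that takes in the limit of 3 counts for a library without reads. The hindlimb and forelimb genes could therefore not be ranked. Tbx4 minus Tbx5 was 0.13, 0, 0 and 0 on the log2(CPM per kb + 1) scale in replicates 1 to 4 (exact two-sided sign-flip permutation p = 1, adjusted 1 over 7 pairs, n = 4), Pitx1 minus Tbx4 had the same values with the opposite sign (exact p = 1), and Pitx1 minus Tbx5 was 0 in every library. GENCODE M21 places exons of the antisense gene Gm47071 over 165 bases of Pitx1 and of the lincRNA Gm28760 over 108 bases. Neither was analysed here.

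Of the genes grouped here under head muscle, Pitx3 was well expressed and Tbx1 stood near 1 CPM. This grouping is a label, and Pitx3 is not specific to the head. Pitx3 (ENSMUSG00000025229, chromosome 19, 46135685 to 46148326), a homeobox gene of lens, midbrain dopamine neurons and differentiating muscle, had 30.7, 25.3, 34.6 and 19.8 CPM in replicates 1 to 4, or 27.6 ± 6.47 CPM. Replicate 3 was highest and replicate 4 lowest, with 452 and 248 reads behind them. After the GC correction replicate 4 stood at 27.0 CPM and replicate 2, at 22.8 CPM, was lowest. Pitx3 shares 10 exon bases (0.655% of its exon length) with Elovl3 on the other strand, which had 2.77 CPM. Tbx1 (ENSMUSG00000009097, chromosome 16, 18580979 to 18590671), the T-box gene of pharyngeal muscle, had 0.625, 1.05, 0.536 and 1.99 CPM, or 1.05 ± 0.667 CPM, from 54 reads in all. Replicate 4, with an interval of 1.29 to 2.94 CPM, lay above replicates 1 (0.270 to 1.23 CPM) and 3 (0.215 to 1.10 CPM) by more than counting error, and its interval overlapped that of replicate 2 (0.575 to 1.77 CPM). Without replicate 4 the mean of Tbx1 was 0.738 CPM, below 1 CPM. Tbx1 had 0.521, 0.951, 0.502 and 2.72 CPM in replicates 1 to 4 after the GC correction, with replicate 4 still highest.

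The somite genes held the highest level of the group. Dmrt2 (ENSMUSG00000048138, chromosome 19, 25672411 to 25678991), a DM domain transcription factor of the dermomyotome, had 132, 102, 84.7 and 105 CPM, or 106 ± 19.4 CPM. Per kb of exon it lay above 94.8% of the genes of the table. As deposited, the highest and lowest libraries, replicates 1 and 3, differed 1.56-fold. After the GC correction replicate 3 was still lowest and replicate 4 was highest, with 109, 95.1, 80.6 and 136 CPM. Meox1 (ENSMUSG00000001493, chromosome 11, 101877510 to 101894374), a homeobox gene of somite and axial skeleton, had 16.03, 9.77, 12.8 and 12.0 CPM, or 12.7 ± 2.59 CPM. Replicate 1 was highest and replicate 2 lowest as deposited, and after the GC correction the values were 13.3, 9.12, 12.1 and 15.5 CPM, with replicate 4 highest. Meox2 (ENSMUSG00000036144, chromosome 12, 37108540 to 37179534), its relative needed for normal limb muscle in the mouse, had 4.46, 4.59, 3.67 and 9.65 CPM, or 5.59 ± 2.73 CPM. Replicate 4 was above the other 3, which lay close together, and remained so after the GC correction with 8.14 CPM against 3.51 to 4.98 CPM. Lbx1 (ENSMUSG00000025216, chromosome 19, 45232684 to 45235812), the homeobox gene of migrating limb muscle precursors, had 1.88, 0.902, 0.842 and 1.36 CPM, or 1.24 ± 0.480 CPM, from 64 reads in all. Only replicates 1 and 4 exceeded 1 CPM. After the GC correction the values were 1.56, 0.815, 0.789 and 1.85 CPM, with replicate 4 highest.

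Per kb of exon the order was Dmrt2 (45.3 ± 8.31 CPM per kb), Pitx3 (18.1 ± 4.24), Meox1 (5.68 ± 1.16), Meox2 (2.37 ± 1.16), Lbx1 (0.501 ± 0.193), Tbx1 (0.299 ± 0.190) and Tbx4 (0.0230 CPM per kb). The ranges of neighbours over the 4 libraries did not overlap down to Lbx1, although Meox1 and Meox2 came close, with a lowest Meox1 level of 4.39 and a highest Meox2 level of 4.09 CPM per kb. Lbx1 and Tbx1 overlapped, and Tbx4, Pitx1 and Tbx5 could not be separated. The within-library difference of log2(CPM per kb + 1), a scale that understates differences of low genes, was taken for 7 pairs and submitted to the exact sign-flip permutation test (two-sided), whose smallest possible p with 4 libraries is 0.125. Meox2 minus Meox1 was -1.50, -0.87, -1.40 and -0.33, a mean of -1.03 ± 0.54 with the same sign in 4 of 4 libraries (exact p = 0.125, adjusted 0.292). The difference was smallest in replicate 4, where Meox2 was high. Dmrt2 minus Lbx1 was 4.94 ± 0.11, also in 4 of 4 libraries (exact p = 0.125, adjusted 0.292). Tbx1 minus Lbx1 was -0.21 ± 0.26, negative in 3 of 4 libraries (exact p = 0.25, adjusted 0.438), and these genes did not differ beyond the spread between libraries.

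Levels differed sharply within gene families, as the plot of Pitx, T-box and Dmrt genes shows. Among Pitx genes, Pitx3 exceeded Pitx1 per kb of exon by at least 144-fold in every library, with Pitx1 set at its floor of 3 counts per library. The test instead took Pitx1 at 0 reads on the log2(CPM per kb + 1) scale. There Pitx1 minus Pitx3 was -4.23 ± 0.33, with the same sign in 4 of 4 libraries (exact sign-flip p = 0.125, adjusted 0.292, n = 4). Tbx5 and its chromosomal neighbour Tbx3, which also acts in limb patterning, lie 148 kb apart on chromosome 5 with no protein-coding gene between them. Tbx3 had 21.7, 41.9, 59.4 and 57.8 CPM and exceeded Tbx5 per kb by at least 65.4-fold in every library, with Tbx5 at the same floor. Tbx4 and its neighbour Tbx2 lie 44.5 kb apart on chromosome 11, and Tbx2 had 10.01, 3.23, 6.12 and 3.27 CPM in the libraries in which Tbx4 had 4, 0, 0 and 0 reads. Dmrt1, Dmrt3 and Dmrt2 form a cluster on chromosome 19, with Dmrt3 48.5 kb from Dmrt2. Dmrt1, a gonadal factor, had no read in any library, and Dmrt2 exceeded its floor per kb by at least 409-fold. Dmrt3, a factor of spinal interneurons, had 60 reads (4.78 CPM) in replicate 4 and none in the other libraries. The 3 neighbours Tbx2, Tbx3 and Dmrt1 were chosen for their position next to a described gene, after values were known.

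**Figure D2:**
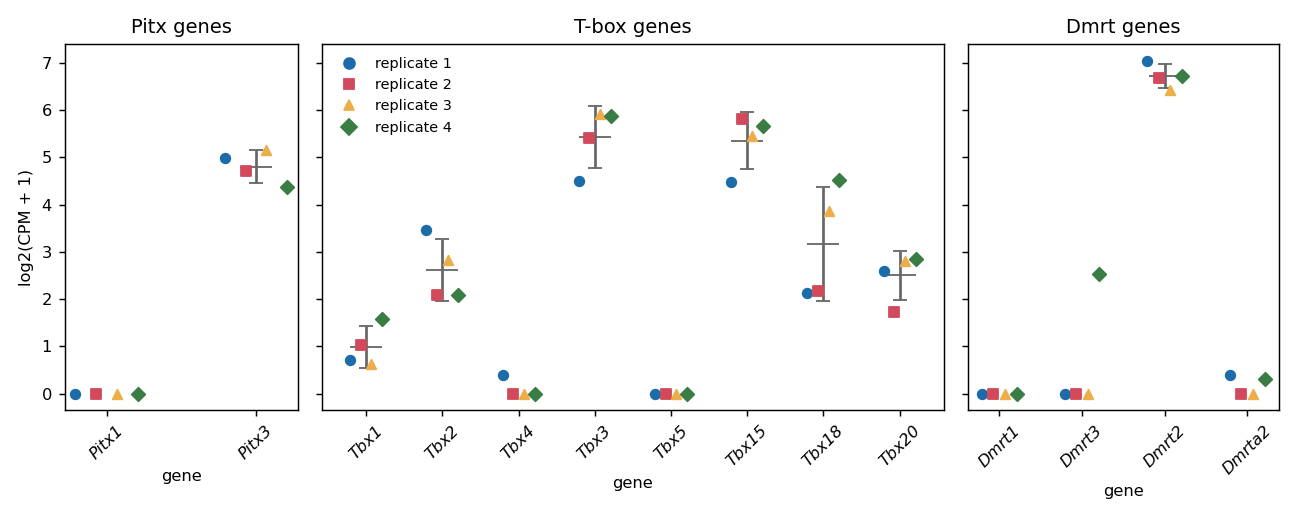
Levels of Pitx, T-box and Dmrt genes in the 4 libraries, as log2(CPM + 1). Points are replicates, and bars with whiskers are the mean ± SD for genes with reads in all 4. Tbx2 stands beside its neighbour Tbx4, Tbx3 beside Tbx5, and Dmrt1 and Dmrt3 beside Dmrt2, and in each set of neighbours a gene with reads in all libraries lies next to a gene at or near 0 in at least 3 of them.

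Related genes can share reads where their sequences are identical, so the longest identical runs of the coding sequences (GENCODE M21) are shown, as they bear on how far Pitx3 and Pitx1, or Tbx4 and Tbx5, can be told apart. Pitx3 and Pitx1 share at most 29 bases in a row and Tbx4 and Tbx5 at most 23. Nothing is capitalised in these runs.
Pitx3 and Pitx1 (coding bases 280 to 308 of Pitx3 and 364 to 392 of Pitx1): gagatcgcggtgtggaccaacctcactga
Tbx4 and Tbx5 (coding bases 724 to 746 of Tbx4 and 670 to 692 of Tbx5): cagctgaaaattgagaacaaccc
Meox1 and Meox2 share at most 12 bases in a row. In none of these pairs is a stretch of 50 coding bases identical. The read length is not given in the sources used here.

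Promoter sequence was at hand from RefSeq (GRCm38.p6) for 5 of the 9 genes, Dmrt2, Pitx3, Meox2, Tbx4 and Tbx1. Pitx1, Tbx5, Lbx1 and Meox1 had no entry. The 250 bases before the start are shown for the 2 genes with the highest levels, for Meox2, the only one of the 5 with an RBPJ core, and for Tbx4, which was nearly without reads. RBPJ is the DNA-binding partner of NICD3. Capitals mark matches on either strand to the RBPJ core (TGGGAA), the E-box (CANNTG), to which myogenic bHLH factors bind, the TATA box (TATAAA) and the CCAAT box (CCAAT, searched after the sequences were seen).
Dmrt2 (chr19:25672161-25672410, plus strand): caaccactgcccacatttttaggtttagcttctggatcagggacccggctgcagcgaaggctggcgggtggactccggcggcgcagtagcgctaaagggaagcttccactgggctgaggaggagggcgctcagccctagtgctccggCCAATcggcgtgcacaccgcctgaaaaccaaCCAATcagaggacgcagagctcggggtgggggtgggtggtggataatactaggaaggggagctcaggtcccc
Pitx3 (chr19:46148326-46148575, minus strand): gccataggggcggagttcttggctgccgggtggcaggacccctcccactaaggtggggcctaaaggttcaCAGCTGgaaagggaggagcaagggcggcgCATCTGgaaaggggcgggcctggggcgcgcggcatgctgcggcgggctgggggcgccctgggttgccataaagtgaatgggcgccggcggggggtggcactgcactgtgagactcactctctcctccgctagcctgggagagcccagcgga
Meox2 (chr12:37108290-37108539, plus strand): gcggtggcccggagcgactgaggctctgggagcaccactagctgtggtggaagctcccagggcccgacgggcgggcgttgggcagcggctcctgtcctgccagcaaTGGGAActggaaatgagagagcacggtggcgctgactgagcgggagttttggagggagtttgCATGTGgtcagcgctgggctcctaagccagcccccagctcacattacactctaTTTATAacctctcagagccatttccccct
Tbx4 (chr11:85896515-85896764, plus strand): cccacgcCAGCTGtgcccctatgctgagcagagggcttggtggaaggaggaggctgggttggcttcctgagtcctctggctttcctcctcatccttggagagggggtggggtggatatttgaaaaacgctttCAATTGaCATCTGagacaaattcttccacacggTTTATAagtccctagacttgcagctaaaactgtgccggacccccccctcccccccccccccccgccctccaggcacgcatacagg
Dmrt2 held 2 CCAAT boxes, starting 103 and 72 bases before the start, and none of the other motifs, and 33.8% of 32851 promoters of this length hold a CCAAT box. Pitx3 held 2 E-boxes and Tbx4 held 3, beside 66.2% of promoters with at least 1. Meox2 held an RBPJ core 144 bases before the start, as 21.6% of promoters do, and a TATA box 29 bases before it, as 12.4% do. Tbx4 held a TATA box 85 bases before the start. CpG dinucleotides numbered 14 in Dmrt2, 16 in Pitx3, 12 in Meox2 and 6 in Tbx4, with a median of 6 over all promoters. These are matches of letters and no measure of binding. The RefSeq start of Tbx4 lies inside the longer GENCODE gene.

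Wider lists of patterning genes also held members with and without reads, except that every migrating limb muscle precursor gene had reads. The shares averaging at least 1 CPM were 40% of somite and paraxial mesoderm factors, 65% of limb patterning factors, 57.1% of head muscle factors, 90.9% of migrating limb muscle precursor genes, 50% of other T-box genes and 16.7% of other Dmrt genes, beside 60.6% of all genes. The limb and head lists thus stood near the share of all genes, and these counts were not tested. Of 20 somite and paraxial mesoderm factors, 8 averaged at least 1 CPM, led by En1 (16.2 ± 9.32 CPM), Tbx18 (10.6 ± 8.93 CPM) and Tbx6 (4.71 CPM). En1 and Tbx18 are factors of somite and limb regions, and Tbx6 specifies paraxial mesoderm. Pax1, Uncx, Nkx3-2 and Ripply2, the first 3 of them sclerotome genes, had no read. The list median was 0.437 CPM. Of 20 limb patterning factors, 13 averaged at least 1 CPM, among them the homeobox gene Msx1 (296 ± 85.6 CPM) and Tbx3 (45.2 ± 17.5 CPM). Sall4 and Hand2 had no read, and the list median was 4.83 CPM, as over all genes. Of 14 head muscle factors, 8 averaged at least 1 CPM, among them Msc (826 ± 150 CPM), a bHLH repressor also known as MyoR, and Eya1 (48.0 CPM), while Lhx2 had no read and Tcf21, a bHLH factor of jaw muscle precursors named after its values were seen, had 1 read in all. Eya1 acts in skeletal muscle beyond the head, and the list is therefore not specific to the head.

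Of 11 genes of migrating limb muscle precursors, 10 averaged at least 1 CPM and the median was 45.2 CPM, the highest of the 6 related lists. Msx1 and the receptor gene Met (157 CPM) led it. Pax3 had 82.1, 43.4, 31.7 and 23.5 CPM as deposited, and was named here after its values were seen. Whether Pax3 reads came from a transgene or from the endogenous gene cannot be told apart. Of 14 other T-box genes, 7 averaged at least 1 CPM, led by Mga (127 CPM), Tbx3 and Tbx15 (42.5 CPM). Tbx10, Tbx21, Tbx22, Eomes and Tbr1 had no read. Of 6 other Dmrt genes, only Dmrt3 averaged at least 1 CPM, and this rested on replicate 4. Dmrta2 and Dmrtc2 had means of 0.138 and 0.0195 CPM, and Dmrt1, Dmrtb1 and Dmrta1 had no read.

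**Figure D3:**
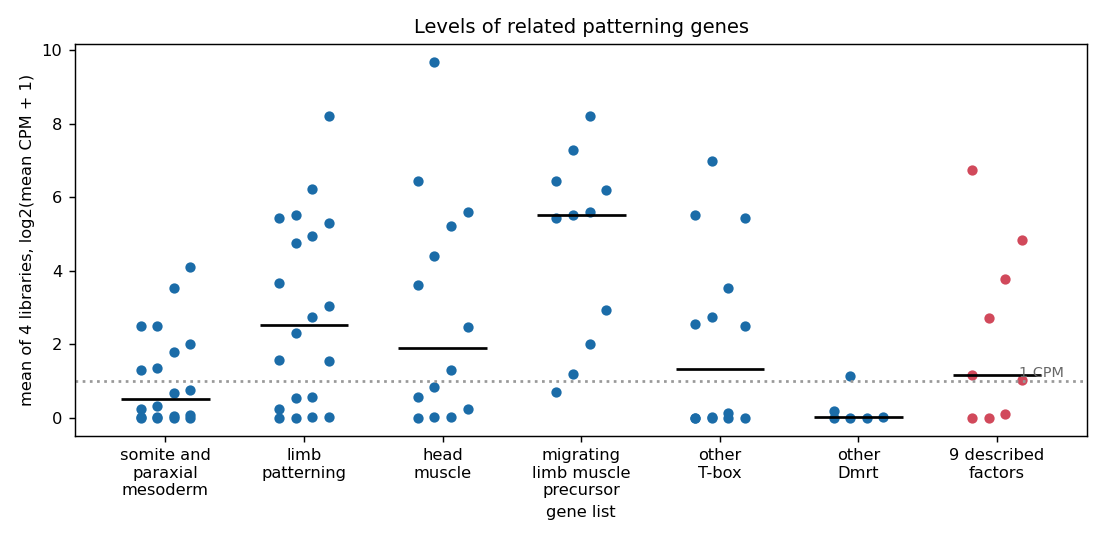
Mean level of each gene of the 6 related lists and of the 9 described factors, as log2(mean CPM + 1) over 4 libraries, not corrected for length. Points are genes and black lines are medians. Each list holds genes below the dotted line of 1 CPM, and the migrating limb muscle precursor list has the highest median.

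Between libraries, the expressed factors varied less than most genes of like level. The SD of log2(CPM + 1) was 0.26 for Dmrt2, 0.27 for Meox1, 0.30 for Lbx1, 0.34 for Pitx3, 0.44 for Tbx1 and 0.53 for Meox2. Among all genes within 1.5 times the same mean CPM, these SDs lay at percentiles of 5.98 (Dmrt2, 1905 genes), 6.27 (Meox1), 7.11 (Lbx1), 10.3 (Pitx3), 20.2 (Tbx1) and 30.6 (Meox2). The median SD of such genes was 0.61 for the level of Dmrt2 and 0.66 for that of Meox2. After the GC correction the percentiles ran from 4.17 (Pitx3) to 46.4 (Tbx1). The percentile of Dmrt2 then was 21.8. Single libraries weighed on these SDs. Without replicate 4 the SD was 0.14 for Meox2, 0.22 for Tbx1 and 0.22 for Pitx3, and without replicate 1 it was 0.17 for Dmrt2 and 0.19 for Lbx1. This is a description of 6 genes and was not tested. The coefficient of variation between libraries was 18.3% for Dmrt2, where counting alone gives 2.70%. For Lbx1 it was 38.6% against 24.9%, and the counting intervals of its 4 libraries all overlapped.

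The libraries in which the factors were highest changed with the GC correction. As deposited, 3 of the 6 (Dmrt2, Meox1 and Lbx1) were highest in replicate 1, beside 26.0% of all genes averaging at least 1 CPM. None was highest in replicate 2, beside 21.2%, 1 (Pitx3) in replicate 3, beside 24.2%, and 2 (Meox2 and Tbx1) in replicate 4, beside 28.6%. After the GC correction none was highest in replicate 1 and 5 were highest in replicate 4, beside 26.9% of all genes. For Dmrt2, Meox1 and Lbx1 the highest library was thus replicate 1 as deposited and replicate 4 after the correction. Meox2 and Tbx1 were highest in replicate 4 on both scales, and Pitx3 in replicate 3.

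**Figure D4:**
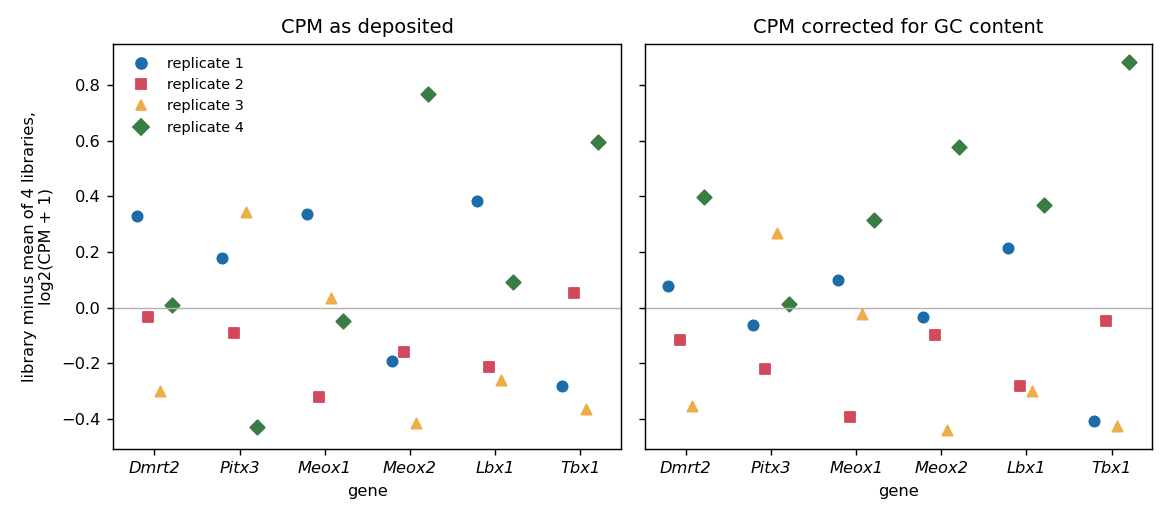
Deviation of each library from the mean of the 4, in log2(CPM + 1), for the 6 factors averaging at least 1 CPM, before and after the correction for GC content. Points are replicates. Replicate 1 moves down for Dmrt2, Meox1 and Lbx1 and replicate 4 moves up, while Meox2 and Tbx1 are highest in replicate 4 in both panels.

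The genes with the most similar profile over the 4 libraries were Fastk for Pitx3, Lamc1 for Dmrt2 and Msc for Meox1, with mean absolute differences of centred log2(CPM + 1) values of 0.0236, 0.0230 and 0.0246. With 4 libraries such likeness is common: 85, 58 and 65 of the 9199 genes searched lay within 0.1 of Pitx3, Dmrt2 and Meox1.

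Markers of other cells, some of which express the same factors, were present and varied. In bulk RNA, few cells of a type and little RNA per cell cannot be told apart. Fibro-adipogenic markers had 10 of 12 genes averaging at least 1 CPM and summed to 5724 to 8651 CPM per library, led by Col3a1 (4599 CPM) and Gsn (1246 CPM), while the defining marker Pdgfra had 0, 0.376, 2.30 and 0.399 CPM. Tendon markers (7 of 8, summing to 491 to 1573 CPM) were led by Tnc (853 CPM) and Fmod (46.3 CPM), with Scx at 2.05 CPM. The highest tendon sum, in replicate 1, was nearly all Tnc (1562 of 1573 CPM). Replicate 3 held 2124 of the 2416 Fmod reads, with 163 CPM against 1.95 to 11.2 CPM elsewhere. Averaged as log2(CPM + 1), the 8 tendon markers were highest in replicate 3 (4.58, against 2.43 to 2.73). Endothelial markers (10 of 10) summed to 398, 317, 135 and 160 CPM in replicates 1 to 4, led by Eng (117 CPM) and Kdr (27.9 CPM), with Pecam1 at 18.6 CPM. Mural markers (8 of 9) summed to 1727, 749, 981 and 1032 CPM, led by Acta2 (590 CPM) and Rgs5 (171 CPM). The mural list includes Notch3, the receptor gene whose intracellular domain was overexpressed, named here after its values were seen. Notch3 had 168, 191, 162 and 153 CPM in replicates 1 to 4. Whether its reads came from the overexpressed domain or from the endogenous gene was not tested. Schwann cell markers (6 of 7) summed to 372 to 566 CPM, among them Ngfr at 152 CPM and the defining marker Sox10 at 118 CPM, and 1 of the 7 had no read. Macrophage markers (6 of 8) summed to 19.3 to 118 CPM, led by Lyz2 (36.6 CPM) and Csf1r (6.99 CPM), with Ptprc at 0.810 CPM. Myofibre markers (8 of 8) summed to 1319 to 2593 CPM, led by Acta1 (781 CPM) and Actn3 (540.0 CPM). Endothelial and mural sums were highest in replicate 1, as were Dmrt2, Meox1 and Lbx1 before the GC correction, whereas Meox2 and Tbx1 were highest in replicate 4. Single genes made up much of both sums in replicate 1, Eng with 204 of 398 CPM and Acta2 with 1143 of 1727 CPM. The part of these cells in the levels of the 9 factors was not tested.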

How the data were processed

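The deposited table holds log2 CPM with a constant offset, as the values themselves show; the lowest value was -4.19 in each library. Trimmomatic 0.33, FastQC, featureCounts, edgeR and the build mm10 are listed, without order or settings, per the submitters' processing notes. For aligner, annotation release and strand, settings were not given in the sources used here. Per the labels' protocols, cDNA of few cells was amplified with a NEBNext low input kit and built into libraries with Nextera XT.

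Removing the offset of 0.0548 CPM gave CPM whose values were whole multiples of 1 read in 100% of cases, within 1e-06 reads. The plan for CPM was kept, and levels were analysed as CPM, as log2(CPM + 1) and per kb of summed exon length from GENCODE M21 (GRCm38, the assembly of mm10), to which 21186 of 21264 identifiers matched. Poisson intervals are exact, at 95%. The GC correction divided each library by its median deviation in 20 bins of transcript GC content. Read recovery, spread and GC steps were tested on simulated reads. Python 3.11.15, numpy 2.4.6 and scipy 1.17.1 were used.

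Named genes are the 9 factors, the 3 highest members of each related list and any without reads, the 1 nearest profile of each factor of 10 CPM or more, the 2 highest and the defining markers of each cell type list, and overlapping genes. Some genes taken by this rule are not reported here, and genes outside it are said to be named after their values were seen. The 9 factors, the 6 related lists, the 8 cell type lists and the pairs were chosen with earlier results of these data known. Other pseudocounts, lengths, TMM scaling, GC correction, detection limits and leaving out each replicate were tried.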

Additional observations from a re-analysis of the deposited data

Results flagged for a closer look

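Of 70 sets of 4 library values (the 9 factors, 7 pairs, other named genes and list means), 8 held a library far from the other 3 by Dixon's criterion, which chance meets in about 1 of 20. That rate does not apply to 5 of the 8, in which 3 libraries are at 0 and any read in the other meets the criterion. Tbx4 had 0.313 CPM in replicate 1 and 0 in the others, and with it Tbx4 minus Tbx5 was 0.13 and Pitx1 minus Tbx4 was -0.13 on the log2(CPM per kb + 1) scale in replicate 1 alone. These 3 rest on the same 4 reads. Dmrt3 had 4.78 CPM in replicate 4 and none elsewhere, from 60 reads. Dmrtc2 had 0.0782 CPM in replicate 1, which is 1 read. Gsn had 1453 CPM in replicate 2, against 1155 to 1199 CPM in the others. The mean of fibro-adipogenic markers was 5.76 on the log2(CPM + 1) scale in replicate 3, against 5.12 to 5.13 in the others, and the mean of tendon markers was 4.58 in replicate 3, against 2.43 to 2.73.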

How the results depend on the processing

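The 63 alternative values of the 9 levels and the 63 of the 7 pair differences, under TMM scaling, GC correction, medians, other pseudocounts and lengths and with each replicate left out, stayed within 1 SD of the level or kept the direction and the side of the threshold, except that Tbx4 minus Tbx5 and Pitx1 minus Tbx4 became 0 without replicate 1; no pair could pass 0.05 under any of them, with exact p from 0.125 to 1. Of 56 alternative counts, 6 were labelled as moved. Other counts changed too, by a smaller share, and were not labelled so. With each replicate left out, detected somite and paraxial mesoderm factors numbered 6 to 8 and head muscle factors 7 to 9. At 5 CPM, 10 limb patterning factors were detected. The counts labelled as moved were the following. With the GC correction, 0 factors were highest in replicate 1 and 5 in replicate 4. Among factors of 5 CPM or more, 1 was highest in replicate 4. At 5 CPM, 2 somite and paraxial mesoderm factors and 0 other Dmrt genes were detected. The count of other Dmrt genes was 0 to 1 with each replicate left out, 0 without replicate 4, since Dmrt3 was read there only. The count of detected factors was 5 to 6 with each replicate left out (Tbx1 was lost without replicate 4), 4 at a mean of 5 CPM or at 1 CPM in every library, and 7 with any read. No paired analysis was possible because there is 1 group. Depth limits Pitx1, Tbx5 and Tbx4, and 54 and 64 reads limit Tbx1 and Lbx1.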

Other observations

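Some limb and somite genes outside the 9 factors varied widely between libraries, and they were chosen after their values were seen. Lmx1b, the homeobox gene of dorsal limb identity, had 32.6, 0.0752, 14.2 and 0 CPM in replicates 1 to 4, so replicates 1 and 3 were above the others. Ripply1, a somite boundary gene, had 6.31 CPM in replicate 2 and no read in the others. En1 and Tbx18 had reads in all 4 libraries. En1 had 19.8, 11.7, 5.97 and 27.3 CPM, and Tbx18 had 3.36, 3.53, 13.5 and 21.9 CPM, highest in replicate 4 in both cases.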
